A study of Rattus norvegicus with 20 samples.

Results

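The gp130 cytokine pathway was followed here through 10 genes, each found on the array by its gene name or by the accession of its probe. They are the ligands Il6, Lif and Cntf, the receptor chains Il6st, Lifr, Osmr and Cntfr, the kinase Jak2, the transcription factor Stat3 and the feedback inhibitor Socs3. Of 41012 probes on the array, 11 belonged to these genes, since Stat3 had 2 probes and the others had 1 each. After the filter on dim probes, 10 of the 11 were among 34225 probes tested, and the probe of Cntfr was not.

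Interleukin-6 type cytokines bind a ligand-specific receptor chain and then gp130, the signal-transducing chain encoded by Il6st. Receptor-bound JAK kinases phosphorylate gp130 and STAT3, which moves to the nucleus and induces Socs3, whose product binds the receptor complex and shuts signalling off. In the nervous system Cntf is best known from glia, and Stat3 in injured neurons is known to promote axon growth, which Socs3 restrains. The arrays measured RNA, so the phosphorylation of STAT3 was not measured.

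All animals were rats aged 2 years with a cortical stroke, and no animal without a stroke was analysed here. A pair of cholera toxin B tracers carrying Alexa 488 and Alexa 647 was placed at the same site in the cortex beside the infarct. The tracers were separated by 7 days in 5 rats and by 21 days in 5 others, separate cohorts called day 7 and day 21, and laser capture followed 7 days after the later tracer. From each rat, about 300 neurons labelled as sprouting and about 300 labelled as non-sprouting were pooled by type, and their RNA was amplified in 2 rounds with T7 polymerase. Each of the 10 rats, 5 per day, was read on a forward array, where Cy5 marked its sprouting neurons, and on a dye-swap array with the dyes exchanged. Which tracer pattern counted as sprouting is not given in the labels. The mean of its 2 arrays is the animal's ratio, given as log2 of sprouting over non-sprouting signal, so that n is 5 rats per day throughout.

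The captured pools carried RNA of neurons and of other cells. Of 10 neuronal markers all were tested, and 5 were well above background in both cell types on all 20 arrays. The same held for 4 of 7 oligodendrocyte markers, 3 of 9 astrocyte markers and 5 of 12 markers of microglia and macrophages. It held for none of the 7 endothelial and 6 blood cell markers, of which 6 and 5 were tested. These markers were still detected on many arrays. Endothelial markers were well above background on 5 to 19 sprouting and 8 to 20 non-sprouting arrays of 20. For blood cell markers it was 11 to 19 and 4 to 20. The share of spots above background ranged from 69.8% to 95.5% for Cy5 and from 20.8% to 95.2% for Cy3. Across probes, the correlation between an animal's 2 arrays lay between 0.046 (day 21 replicate 4) and 0.89 (day 7 replicate 1). The ratio of a probe can reflect fewer cells of a type as well as less RNA per cell, and these cannot be told apart in pools.

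At neither day did the ratio of any member pass the adjusted threshold. limma with Benjamini-Hochberg adjustment called 0 of the 10 tested member probes at each day, where the share called over all tested probes was 0% as well. At an unadjusted p under 0.05 it marked 1 of 10 members at day 7, Osmr, against 6.11% of all probes. At day 21 it marked 1 of 10, Stat3, against 4.75% of all probes. The median member ratio was -0.020 at day 7 and 0.025 at day 21, and over all tested probes it was -0.0021 and -0.00023. The median size of the ratio, sign set aside, was 0.045 for the members and 0.048 for all probes at day 7, and 0.036 and 0.047 at day 21. Member ratios were thus about as large as those of other probes.

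**Figure D1:**
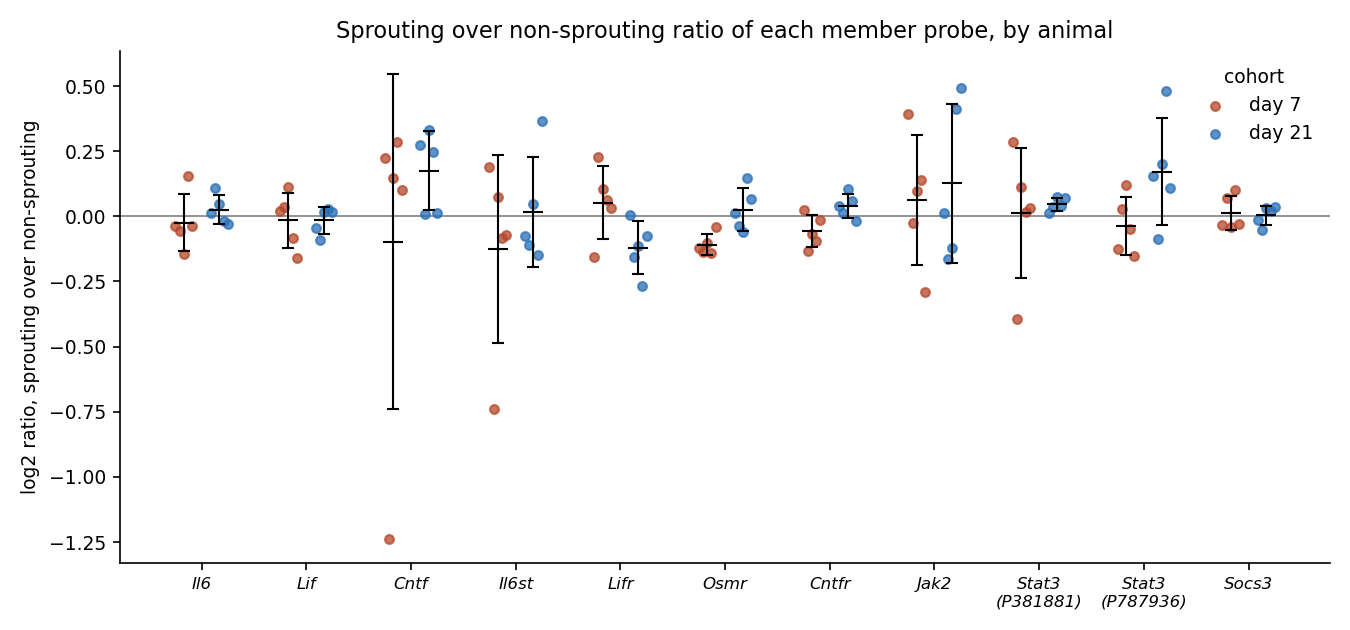
Log2 ratio of sprouting over non-sprouting signal (vertical axis) for the 11 member probes (horizontal axis), with 1 point per rat, day 7 in red and day 21 in blue, and black marks for the mean ± SD of 5 rats. The 2 lowest points, Cntf at -1.24 and Il6st at -0.74, come from the same day 7 rat.

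Among the ligands, Il6 and Lif were dim, with mean ratios near 0. Il6, the founding member of the family and an inflammatory cytokine, was well above background in 33 of 40 channels, each array having 2. Its ratios at day 7 were -0.038, -0.055, -0.14, 0.15 and -0.037 in replicates 1 to 5, a mean of -0.024 ± 0.11 (SD, n = 5). At day 21 they were 0.014, 0.11, 0.046, -0.016 and -0.029, a mean of 0.025 ± 0.056 (SD, n = 5). Both days scattered around 0 and overlapped.

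Lif, leukemia inhibitory factor, was well above background in 35 of 40 channels. Ratios of 0.021, 0.034, 0.11, -0.083 and -0.16 were read at day 7, and of -0.046, -0.091, 0.016, 0.028 and 0.017 at day 21. The means were -0.015 ± 0.11 and -0.015 ± 0.051 (SD, n = 5 each), with 3 of 5 rats above 0 at either day. The 95% interval of the fit ran from -0.11 to 0.078 at both days, that is from 0.927-fold to 1.06-fold. The median spot signal of Lif was 125 to 135 across the groups. With the offset in background correction, a narrow interval at such dim signal does not bound a change in RNA.

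Cntf, ciliary neurotrophic factor, behaved differently in a single rat. It was well above background in all 40 channels. At day 7 its ratios were 0.22, -1.24, 0.15, 0.29 and 0.10 in replicates 1 to 5. The ratio of replicate 2 stood far below those of the other 4 rats, on its forward array (-1.20) as on its dye-swap array (-1.28). Its normalized log2 level of Cntf was 9.07 in sprouting and 10.3 in non-sprouting neurons, each the highest of the 10 rats. At day 21 the ratios were 0.27, 0.010, 0.33, 0.25 and 0.013. All 5 day 21 rats were thus above 0, as were 4 of 5 at day 7. In day 21 replicates 2 and 5, however, the forward and dye-swap arrays lay on opposite sides of 0. They read 0.025 and -0.0042 in replicate 2 and -0.035 and 0.060 in replicate 5.

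The Cntf mean was -0.097 ± 0.64 (SD, n = 5) at day 7 and 0.17 ± 0.15 at day 21, with adjusted p = 0.952 and 0.932 in limma. Without day 7 replicate 2 the day 7 mean was 0.19 ± 0.083 (SD, n = 4). A ratio above 0 in all 5 day 21 rats was found for 2.87% of all tested probes and for 2 of 10 member probes, Cntf and the Stat3 probe A_44_P381881. The fit pooled its spread over both days, so the interval of the day 21 ratio reached from -0.24 to 0.59.

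The ratios of oligodendrocyte markers, sprouting over non-sprouting, were also low in the rat with the low Cntf ratio, and those of other cell types were mixed. In day 7 replicate 2, all 7 oligodendrocyte markers were below 0, with a median of -0.74, while their median in the other 9 rats lay between -0.13 and 0.27. Mbp, a myelin protein, stood at -1.56 and Mobp, another, at -1.30 in that rat. Gfap, the intermediate filament of astrocytes, stood at -1.27, but 6 of 9 astrocyte markers were above 0, with a median of 0.10. Endothelial markers had 4 of 6 above 0 (median 0.017) and blood cell markers 3 of 5 (median 0.051). Neuronal markers had a median of 0.34 there, with 9 of 10 above 0, and microglial markers one of -0.20, with 3 of 12 above 0. The log2 summed level of the oligodendrocyte markers at day 7 ranged from 14.8 to 15.8 in sprouting and from 15.1 to 15.5 in non-sprouting neurons. At day 21 it ranged from 15.1 to 15.9 and from 14.5 to 15.8. The part of these cells in the Cntf ratio was not tested.

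**Figure D2:**
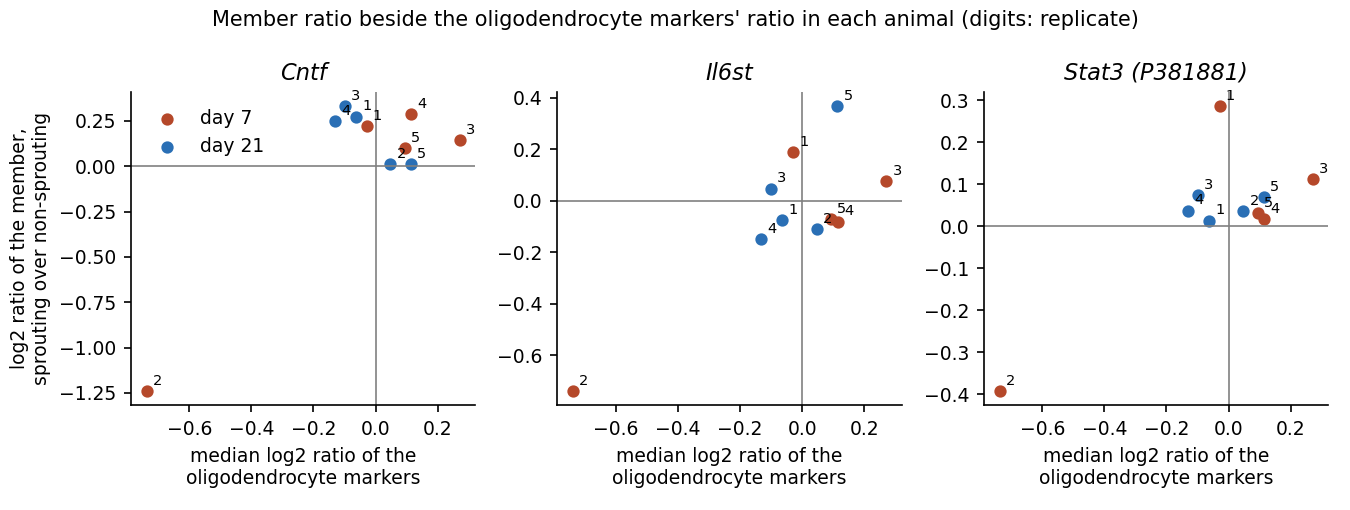
Log2 ratio of Cntf, Il6st and Stat3 probe A_44_P381881 (vertical axes, scaled separately) against the median log2 ratio of 7 oligodendrocyte markers (horizontal axis) in each of 10 rats, with the replicate number beside each point, day 7 in red and day 21 in blue. Day 7 replicate 2 lies alone at the lower left in all 3 panels, with a marker median of -0.74.

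The DNA before the members' start sites was searched for the STAT motif TTCNNNGAA, which reads the same on both strands. RefSeq promoter entries of build GRCr8 were found for 8 of the 10 genes, all but Lif and Cntfr, and the 250 bases before the start were read. None of the 8 windows held the motif, which 7.67% of 33469 promoter windows of that length did. For Il6st, Lifr, Osmr, Stat3 and Socs3 the window overlaps the annotated gene, so DNA before an earlier start was not read. The windows of the ligands Il6 (chr4:5894576-5894825, minus strand) and Cntf (chr1:219314536-219314785, minus strand), which lie outside the annotated genes, are shown 5′ to 3′ as examples of what was searched, with no capitals because nothing matched.
Il6: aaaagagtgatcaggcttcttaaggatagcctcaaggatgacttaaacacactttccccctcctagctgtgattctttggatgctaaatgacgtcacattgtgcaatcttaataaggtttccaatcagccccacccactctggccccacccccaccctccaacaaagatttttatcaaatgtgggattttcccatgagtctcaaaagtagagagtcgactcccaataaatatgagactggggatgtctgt
Cntf: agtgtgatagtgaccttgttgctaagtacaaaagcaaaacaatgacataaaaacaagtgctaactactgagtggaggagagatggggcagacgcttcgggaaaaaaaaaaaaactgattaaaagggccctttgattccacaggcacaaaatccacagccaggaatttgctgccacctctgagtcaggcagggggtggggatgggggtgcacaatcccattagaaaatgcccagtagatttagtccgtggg

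The receptor chains differed in how their rats fell. Il6st, which encodes gp130, was well above background in 39 of 40 channels. At day 7 its ratios were 0.19, -0.74, 0.075, -0.081 and -0.072, with the low value again in replicate 2. Its day 21 ratios were -0.075, -0.11, 0.047, -0.15 and 0.37, with the high value in replicate 5. In each cohort a single rat thus stood away from the other 4.

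The Il6st mean was -0.13 ± 0.36 at day 7 and 0.016 ± 0.21 at day 21 (SD, n = 5 each). Without day 7 replicate 2, in which the ratios of oligodendrocyte markers were lower, the day 7 mean was 0.027 ± 0.13 (SD, n = 4). The adjusted p values were 0.895 and 0.995 in limma.

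Osmr, the oncostatin M receptor chain that pairs with gp130, was the only member below 0 in all 5 rats of a day. Its day 7 ratios were -0.12, -0.14, -0.10, -0.14 and -0.041, a mean of -0.11 ± 0.041 (SD, n = 5), or 0.928-fold with a 95% interval of 0.877 to 0.982. At day 21 they were 0.015, -0.039, -0.060, 0.15 and 0.066, a mean of 0.026 ± 0.084 (SD, n = 5), with 3 of 5 rats above 0. The highest day 7 rat overlapped the lowest day 21 rat.

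The unadjusted p of Osmr at day 7 was 0.014, and the adjusted p was 0.775 in limma. A ratio below 0 in all 5 day 7 rats was found for 5.98% of all tested probes, against 1 of 10 members. Osmr was dim, at 33 of 40 channels well above background, with a median spot signal of 121 to 134 across the groups. As for Lif, the interval of Osmr at such dim signal does not bound a change in RNA. The Osmr ratios on arrays of opposite dye also differed. At day 7 the forward arrays alone gave -0.029 and the dye-swap arrays alone -0.19. Under median centring in place of loess the value was -0.0092.

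Lifr, the leukemia inhibitory factor receptor chain, had means on opposite sides of 0 at the 2 days. It was well above background in 35 of 40 channels. Its day 7 ratios were -0.16, 0.23, 0.10, 0.061 and 0.031, and its day 21 ratios 0.0057, -0.16, -0.11, -0.27 and -0.074. The means were 0.053 ± 0.14 and -0.12 ± 0.10 (SD, n = 5 each), with 4 of 5 rats above 0 at day 7 and 4 of 5 below 0 at day 21. At day 21 the unadjusted p was 0.0503 and the adjusted p 0.917 in limma, and a ratio below 0 in all 5 rats, which 3.39% of all probes had, was found for 0 of 10 members. At day 21 the forward arrays of Lifr alone gave -0.048 and the dye-swap arrays alone -0.19. On the dye-swap arrays of replicates 2, 3 and 4 its sprouting spot was not well above background. The day 21 value of Lifr was -0.019 without background correction, -0.026 with the deposited log10 ratios turned to log2 and -0.027 with median centring.

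Cntfr, the anchored receptor chain specific for ciliary neurotrophic factor, was not tested. Its probe was well above background in 13 of 40 channels, with 4 of 10 sprouting and 7 of 10 non-sprouting channels at day 7 and 1 of 10 each at day 21. Its ratios lay between -0.13 and 0.11 over the 10 rats, and day 21 replicate 4 rests on its forward array, because the dye-swap spot was an outlier. At this signal a difference in Cntfr was not detectable.

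Jak2, a kinase that docks on gp130, varied between rats more than between days. It was well above background in 39 of 40 channels. The day 7 ratios were 0.39, -0.027, 0.098, 0.14 and -0.29, and its day 21 ratios 0.014, -0.16, -0.12, 0.41 and 0.49. The means were 0.063 ± 0.25 and 0.13 ± 0.31 (SD, n = 5 each), with 3 of 5 rats above 0 at either day and adjusted p = 0.949 and 0.919 in limma. Without day 21 replicates 4 and 5, the day 21 mean of Jak2 was -0.091. Without day 7 replicate 1 its day 7 mean was -0.020, and with median centring -0.087.

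Stat3, the main transcription factor of the pathway, was read by 2 probes that did not move together in every rat. Probe A_44_P787936 was well above background in all 40 channels. Its day 7 ratios were -0.13, 0.027, 0.12, -0.050 and -0.15, a mean of -0.036 ± 0.11 (SD, n = 5). Its day 21 ratios were 0.15, -0.087, 0.20, 0.48 and 0.11, a mean of 0.17 ± 0.20 (SD, n = 5), or 1.13-fold with a 95% interval of 1.01 to 1.25. At day 21, 4 of 5 rats were above 0, and the cohorts overlap.

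The unadjusted p of this probe at day 21 was 0.034 and the adjusted p 0.917 in limma. Replicate 4 carried the highest value, and its dye-swap array had 4088 outlier spots. Without that rat the mean was 0.094 with an unadjusted p of 0.14. With median centring in place of loess the value was -0.036, so that its direction turned with the normalization.

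Probe A_44_P381881 of Stat3 was well above background in 38 of 40 channels. Its day 7 ratios were 0.29, -0.39, 0.11, 0.018 and 0.031, with the lowest again in replicate 2. Its day 21 ratios were 0.014, 0.036, 0.075, 0.038 and 0.070, all above 0 and all small, a mean of 0.046 ± 0.025 (SD, n = 5) with adjusted p = 0.960 in limma. In day 21 replicate 4, the 2 probes read 0.48 and 0.038.

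Socs3, the inhibitor that Stat3 induces, had a ratio between -0.054 and 0.10 in every rat once both dyes were averaged. Its day 7 ratios were -0.032, 0.070, -0.043, 0.10 and -0.029, and its day 21 ratios -0.016, -0.054, 0.031, 0.020 and 0.035. The means were 0.013 ± 0.066 and 0.0033 ± 0.038 (SD, n = 5 each), with adjusted p = 0.966 and 0.996 in limma. Socs3 was well above background in 39 of 40 channels but dim. Its median spot signal was 143 to 178 across the groups, beside 132 to 151 for Il6. With the offset of 50 in background correction, a narrow interval at such dim signal does not bound a change in RNA. The 95% interval ran from 0.958-fold to 1.06-fold at day 7 and from 0.952-fold to 1.06-fold at day 21, the narrowest of the tested members at either day. With the deposited log10 ratios turned to log2, the day 7 value of Socs3 was 0.15 (unadjusted p = 0.146 in limma), above the upper limit of that interval.

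On single arrays, the sign of the Socs3 ratio went with the dye orientation. Its ratio was below 0 on 10 of 10 forward arrays, from -0.40 to -0.0066, and above 0 on 9 of 10 dye-swap arrays, from -0.022 to 0.44. After loess normalization, though not always before it, the green channel was thus the brighter one on 19 of 20 arrays. Of all tested probes, 0.397% showed this on 19 or more. Both arrays of a rat had the same sign in 1 of 10 rats for Socs3, against 9 of 10 for Stat3 probe A_44_P787936 and 8 of 10 for Cntf, Jak2 and Stat3 probe A_44_P381881. For Il6, Lif, Lifr and Osmr it was 3 or 4 of 10. Over all tested probes, 53.0% to 72.8% had the same sign on both arrays of a rat.

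**Figure D3:**
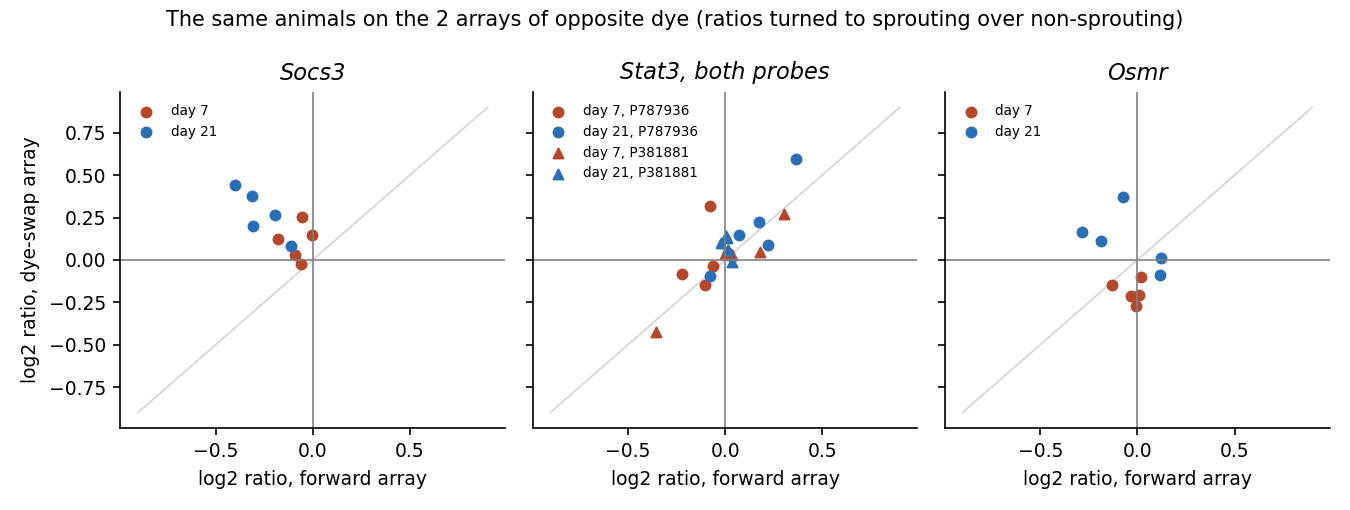
Log2 ratio of sprouting over non-sprouting signal on the dye-swap array (vertical axis) against the forward array (horizontal axis), with 1 point per rat and day 7 in red and day 21 in blue. Points on the grey diagonal have equal ratios on both arrays; the points of Socs3 lie to the left of 0 and 9 of 10 lie above 0, while those of Stat3 spread along the diagonal.

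The change of the ratio from day 7 to day 21 was not called for any member. limma called 0 of 10 members and 0% of all probes after adjustment, and at an unadjusted p under 0.05 it marked 2 of 10, Osmr and Lifr, against 4.13% of all probes. For Osmr the difference of the ratio, day 21 minus day 7, was 0.13 (95% interval 0.019 to 0.25, unadjusted p = 0.027, adjusted p = 0.921). For Lifr it was -0.17 (95% interval -0.35 to -0.0026, unadjusted p = 0.047, adjusted p = 0.921). The values of Osmr and Lifr thus lay on opposite sides of 0. On the day 21 dye-swap arrays of replicates 2, 3 and 4, the sprouting spots of both genes were not well above background. Lifr read -0.32, -0.31 and -0.48 there, and Osmr 0.11, 0.16 and 0.37. Both differences thus rest partly on undetected spots. For Lifr the difference was -0.069 without background correction and -0.087 with the deposited log10 ratios turned to log2. The direction for Osmr turned on the forward arrays alone, where the difference was -0.033.

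Complete separation of the cohorts was not seen for any of the 10 members. All day 21 rats lay above all day 7 rats for 0.339% of all probes, and below them for 0.611%. Only 1 of the 5 scan batches held both days, with day 7 replicates 4 and 5 and day 21 replicate 1. Within it the difference was 0.11 for Osmr, -0.040 for Lifr and 0.26 for Stat3 probe A_44_P787936, which over all rats stood at 0.21 (adjusted p = 0.921 in limma).

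Levels in each cell type were compared between the cohorts as normalized log2 intensity. No member was called in sprouting neurons, where limma called 0% of all probes and marked 15.1% at an unadjusted p under 0.05, or in non-sprouting neurons, where it called 0% and marked 15.8%. At that unadjusted threshold 1 of 10 members was marked in sprouting neurons, Lifr, and 0 of 10 in non-sprouting neurons. Day 21 means were lower than day 7 means for 8 of 10 members in sprouting and for 10 of 10 in non-sprouting neurons. Over all tested probes, 41.0% and 41.4% had the higher mean at day 21. The medians over members were -0.074 and -0.15, beside -0.061 and -0.060 over all tested probes.

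Lifr in sprouting neurons stood at 6.92, 6.84, 6.92, 6.91 and 7.06 at day 7 and at 6.91, 6.51, 6.58, 6.44 and 6.42 at day 21. The cohorts overlap through day 21 replicate 1, and the other 4 day 21 rats lie below all day 7 rats. In sprouting neurons Lifr was well above background in 10 of 10 channels at day 7 and in 7 of 10 at day 21. At day 21 this held for 2 of 5 Cy3 channels, with the dye-swap arrays of replicates 2, 3 and 4 failing, so the low levels rest partly on undetected spots. The difference, day 21 minus day 7, was -0.36 (SE 0.12, adjusted p = 0.224 in limma). In non-sprouting neurons the Lifr level was 6.88 ± 0.19 at day 7 and 6.69 ± 0.15 at day 21 (SD, n = 5 each), a difference of -0.19 (SE 0.12, adjusted p = 0.434 in limma). Within the scan batch that held both days, the difference in sprouting neurons was -0.078.

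The other receptor and kinase levels had wide spreads at day 21. Il6st stood at 7.76 ± 0.44 at day 7 and 7.71 ± 0.70 at day 21 in sprouting neurons, and at 7.88 ± 0.28 and 7.70 ± 0.83 in non-sprouting neurons (SD, n = 5 each). Jak2 stood at 8.72 ± 0.38 and 8.39 ± 0.58 in sprouting neurons and at 8.66 ± 0.25 and 8.26 ± 0.86 in non-sprouting neurons. Osmr stood at 6.47 ± 0.20 and 6.40 ± 0.10 in sprouting neurons and at 6.57 ± 0.16 and 6.37 ± 0.14 in non-sprouting neurons. For these 3 genes the adjusted p of the difference between days lay between 0.394 (Osmr in non-sprouting neurons) and 0.951 (Il6st in sprouting neurons) in limma.

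Stat3 probe A_44_P787936 stood at 9.70 ± 0.33 at day 7 and 9.85 ± 0.24 at day 21 in sprouting neurons, and at 9.74 ± 0.28 and 9.68 ± 0.42 in non-sprouting neurons (SD, n = 5 each). Socs3 stood at 7.05 ± 0.22 and 6.96 ± 0.31 in sprouting neurons and at 7.04 ± 0.25 and 6.95 ± 0.32 in non-sprouting neurons. Cntf stood at 8.69 ± 0.27 and 8.29 ± 0.53 in sprouting neurons and at 8.78 ± 0.87 and 8.12 ± 0.45 in non-sprouting neurons. The wide spread of Cntf in non-sprouting neurons at day 7 came with 1 rat, replicate 2, at 10.3, the other 4 lying between 8.27 and 8.71. For Il6 and Lif, group means lay between 6.73 and 6.77 and between 6.60 and 6.65.

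The lowest day 21 levels, after scaling between arrays, came mostly from a single rat. Day 21 replicate 5 had the lowest level of its cohort in both cell types for 8 of the 10 tested member probes, all but Il6 and Stat3 probe A_44_P787936. Over all tested probes this held for 31.2%, against 5.61% to 12.1% in the other 4 day 21 rats. In that rat Il6st stood at 6.74 in sprouting and 6.37 in non-sprouting neurons, and Jak2 at 7.48 and 6.98. Its neuronal markers had a median ratio of -0.35, the lowest of all 10 rats, but 4 of 10 were above 0. They ranged from -2.03 to 1.94. A ratio between the pools does not speak to levels low in both, and the part of neurons in these levels was not tested.

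**Figure D4:**
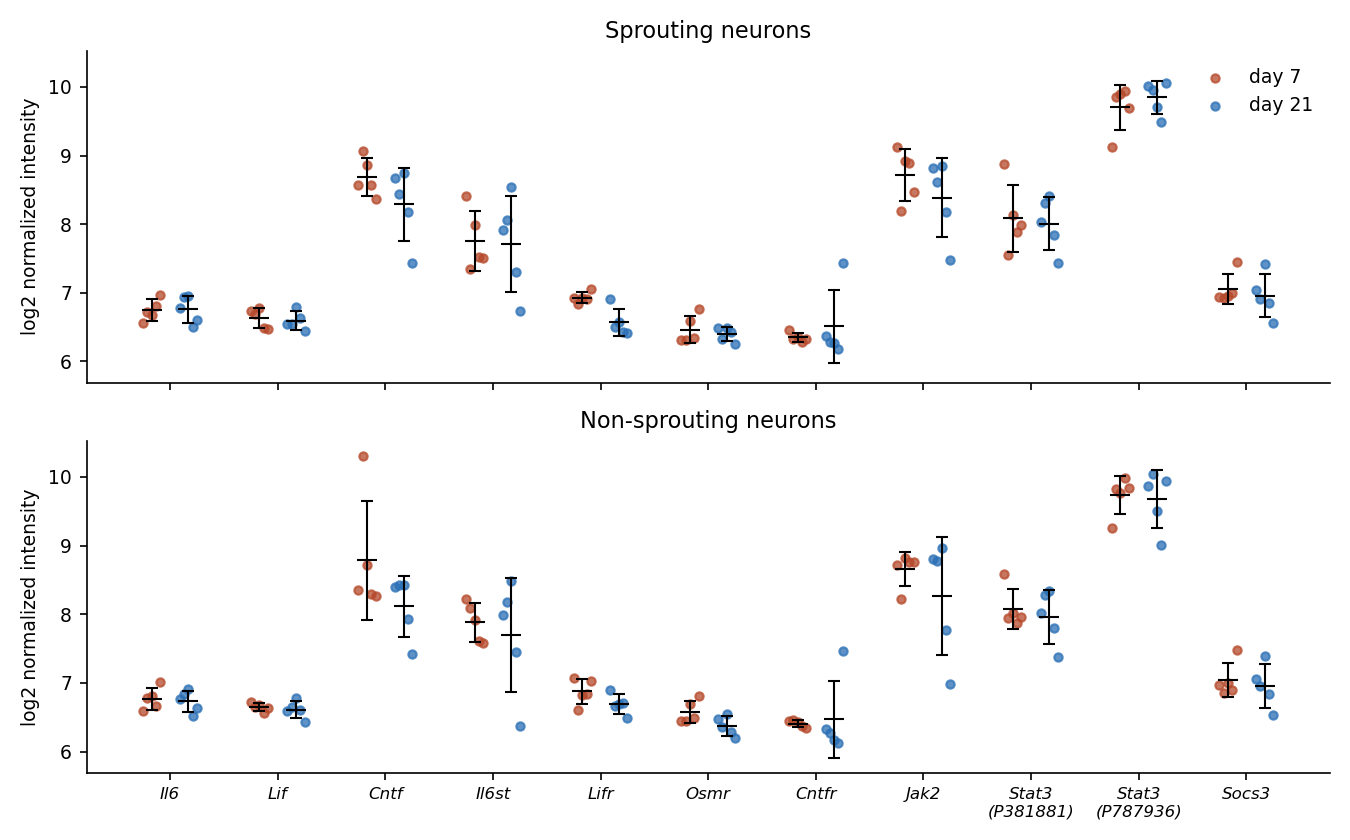
Normalized log2 intensity (vertical axes) of the 11 member probes (horizontal axis) in sprouting neurons (top) and non-sprouting neurons (bottom), with 1 point per rat, day 7 in red and day 21 in blue, and black marks for the mean ± SD of 5 rats. The cohorts overlap for each tested probe, and the low day 21 points of Il6st (6.74 and 6.37) and Jak2 (7.48 and 6.98) belong to replicate 5; levels of different probes are not comparable with each other.

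The rest of the pathway was read from lists of ligands, receptors, kinases, STATs, inhibitors and target genes. Of 68 listed genes other than the 10 members, 63 had a probe and 58 were tested. None was called in any of the 6 comparisons in limma. At an unadjusted p under 0.05, 4 were higher and 1 lower in sprouting neurons at day 7, against 6.11% of all probes in both directions. At day 21, 2 of 58 were higher, against 4.75% of all probes in both directions. Their median ratio was 0.049 at day 7 and 0.0031 at day 21, beside -0.0021 and -0.00023 over all tested probes.

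Jak1, the kinase most closely tied to gp130, had the smallest p of the pathway at day 7. Its ratios were 0.39, 0.30, 0.21, 0.13 and 0.031 at day 7 and 0.18, 0.059, 0.13, 0.015 and 0.10 at day 21, above 0 in 10 of 10 rats. The means were 0.21 ± 0.14 and 0.098 ± 0.065 (SD, n = 5 each), with adjusted p = 0.587 and 0.917 in limma. The other tested probe of Jak1 stood at -0.029 and -0.095. The 2 Jak1 probes thus pointed in opposite directions at both days. Over all tested probes, 2.87% were above 0 in all 5 day 21 rats. The same share at day 7 is not given here, so day 7 counts of 5 of 5 above 0 stand without it. Tyk2, the third kinase that docks on gp130, stood at 0.00030 ± 0.045 and 0.060 ± 0.15, and Jak3, a kinase of other cytokine receptors, at -0.083 ± 0.054 and 0.023 ± 0.13.

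Among the other STATs, Stat2, known from interferon signalling, had a mean of -0.15 ± 0.13 at day 7, with 4 of 5 rats below 0 (unadjusted p = 0.013, adjusted p = 0.775 in limma), and of -0.037 ± 0.080 at day 21. Stat4 was above 0 in 4 of 5 day 7 and 5 of 5 day 21 rats, with means of 0.062 ± 0.10 and 0.065 ± 0.037. Stat5a, Stat5b and Stat6 had means between -0.053 and 0.11.

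Among the other ligands and receptors, Il27 had the highest day 7 ratio of the ligands. It was above 0 in 5 of 5 rats, with a mean of 0.24 ± 0.21 (adjusted p = 0.811 in limma). Replicate 1 was the highest of them at 0.62. Ctf2 was the lowest ligand at day 21, at -0.061 ± 0.096. Il6r, the chain that binds interleukin-6, ranged from -0.30 to 0.51 at day 7 and from -0.46 to 0.031 at day 21, and had the highest mean of the receptors at day 7 and the lowest at day 21. Osm, the ligand of Osmr, and Il11 were not tested.

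Of 14 tested inhibitors, Ptpn6, a phosphatase best known from blood cells, had the highest mean at day 7. Its ratios were 0.78, -0.19, 0.45, 0.20 and 0.27 at day 7 (0.30 ± 0.36, adjusted p = 0.794 in limma) and below 0 in 5 of 5 rats at day 21 (-0.16 ± 0.15). Pias3, which binds STAT3, was the lowest inhibitor at day 7, at -0.049 ± 0.13. At day 21 the phosphatases Ptpn2 and Ptpn11 were the highest and the lowest, at 0.14 ± 0.38 and -0.27 ± 0.41. Each spread exceeded its mean, apart from the day 21 value of Ptpn6.

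The tested target genes were mostly above 0 at day 7, a count that moved with replicates 1 and 2. Of 28 targets, 21 had a mean above 0, with a median of 0.094, where 48.7% of all tested probes were above 0. Without day 7 replicate 1, 8 of 28 were above 0 and the median was -0.033, while without replicate 2 the count was 23 and the median 0.10. Without both rats, 20 of 28 were above 0 with a median of 0.018. A2m, an acute-phase protease inhibitor, had ratios of 4.96, -2.94, 0.94, 0.78 and 0.69 at day 7. Its mean was 0.89 ± 2.80 (SD, n = 5), and -0.13 without replicate 1.

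Atf3, an injury-induced transcription factor, stood at 3.72 in day 7 replicate 1 and between -0.90 and 0.87 in the other 4 rats. In that rat the macrophage gene Lyz2 stood at 4.21, Cd68 at 1.45 and Tyrobp at 1.30, the blood cell markers had a median of 0.66 and the endothelial markers, all 6 above 0, one of 0.31. The whole list of microglia and macrophages had 7 of 12 markers above 0 there, with a median of 0.064. Its log2 summed level ranged from 13.2 to 15.5 in sprouting neurons and reached 14.7 in non-sprouting neurons at day 7, and from 12.7 to 13.1 and 12.9 to 13.2 at day 21. The part of these cells in the target genes' ratios was not tested. Gal, a neuropeptide, was the lowest target at day 7 (-0.13 ± 0.34), with replicate 5 at -0.69 and the other 4 rats between -0.18 and 0.14. At day 21, 15 of 28 targets were above 0 with a median of 0.0031, the highest being Vip, another neuropeptide, at 0.66 ± 0.66 (unadjusted p = 0.027, adjusted p = 0.917 in limma), and the lowest Atf3 at -0.20 ± 0.14.

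Genes whose ratios ran most like those of a member over the 10 rats are given as a description, by Pearson's r among 16686 or 16687 named probes, the rats being shared by both genes. For Stat3 probe A_44_P787936 they were Smr3a (r = 0.952), Sult1b1 (0.940), Cd5l (0.934), Lrrc8e (0.925) and Tsacc (0.922). For Socs3 they were Pax6 (0.917), Ret (0.883), Lrrtm2 (0.880), Utrn (0.858) and Acot13 (0.855). For Il6st they were Gde1 (0.980), Fads1 (0.962), Ppil2 (0.956), Aga (0.955) and Adi1 (0.953). Without day 7 replicate 2, the values for Il6st were 0.858 to 0.965. The genes were picked as the highest among so many probes over 10 rats, so their r are large by selection. No chance level was computed.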

How the data were processed

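The 20 two-colour Agilent rat arrays had been quantified with Agilent Feature Extraction 9.1.3.1, per the file headers. Spot and background intensity were deposited on a linear scale with flags for dim, saturated and outlying spots, per the file headers. The deposited log10 ratio, per the file headers, was an alternative. So was the authors' deposited table of log2 ratios, with normalization not given in the sources used. Its columns correlated with the loess ratios of their arrays at 0.904 to 1.00, with slopes of 0.870 to 1.68 and medians of -0.012 to 0.012. Its centring stays unknown, and 20 further columns stayed out.

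Background correction used normexp (offset 50), and arrays were normalized by loess in limma 3.58.1 (R 4.3.3), with control spots at weight 0. Outlier spots (11 to 4088 per array) were set to missing, and no member spot was saturated. A probe was tested if, in 1 cell type at 1 day, 3 or more rats had it well above background on each of their 2 arrays. Each rat's 2 arrays were averaged, and both days entered 1 lmFit and eBayes fit, with Benjamini-Hochberg adjustment over 34225 probes at 0.05. Levels came from loess and Aquantile scaling. The fit was tested on simulated data. Replicate numbers did not pair the cohorts, as same-numbered rats correlated at -0.18 to 0.045 in their deviations from the group means. The number of arrays limits the precision.

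The text names each member probe, each JAK and STAT gene, the highest and lowest gene of the other lists at each day and, for Stat3, Socs3 and Il6st, the 5 genes of highest correlation. A result of 1 gene under this rule is not reported here. Marker genes were taken from fixed lists, and single markers were named after their values were seen. Gene names came from a RefSeq table, and 21814 probes had no name here. Members and lists were chosen with earlier results of these data known. Alternatives were other normalizations, filters, dye orientations, scan batches and left-out rats, of which day 7 without replicates 1 and 2 was chosen after seeing the data.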

Additional observations from a re-analysis of the deposited data

Results flagged for a closer look

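In a cohort of 5 rats, a value was marked where its gap to the nearest other rat exceeded 0.71 of the range, which chance does in about 1 group in 20. Of 66 groups of member ratios and levels, 8 were marked. The Cntf ratio of day 7 replicate 2 was -1.24, against 0.10 to 0.29 in the other 4 rats, and the Cntf level of its non-sprouting neurons was 10.3, against 8.27 to 8.71. The Jak2 level of the same non-sprouting pool was 8.22, against 8.72 to 8.82. In day 7 replicate 1, Stat3 probe A_44_P381881 stood at 8.59 in non-sprouting neurons, against 7.87 to 8.02.

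Socs3 was high in both pools of day 7 replicate 5. Its level was 7.45 in sprouting neurons, against 6.92 to 6.99 in the other 4 rats, and 7.48 in non-sprouting neurons, against 6.85 to 7.00. With each channel scaled to its 75th percentile and no loess, the gap was 0.346 and 0.658 of the range, below the mark in both pools.

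Cntfr, which was not tested, was high in both pools of day 21 replicate 5, at 7.44 in sprouting neurons (others 6.19 to 6.37) and 7.46 in non-sprouting neurons (others 6.13 to 6.33). Its spot was well above background on 1 of that rat's 2 arrays. With 75th percentile scaling the gap was 0.524 of the range in sprouting neurons, below the mark, and 0.786 in non-sprouting neurons.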

How the results depend on the processing

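No member passed adjusted p 0.05 in any alternative run, the smallest being 0.0727 with 1 rat left out and 0.0778 otherwise. Of 684 member values under other settings 643 moved by less than 1 SD, and 88 changed sign. Part of the 643 could not move, because some settings leave a member's value as it was. These were the other filters, a single probe per gene, missing saturated spots and the replicate block. Day 21 ratios likewise stay the same when day 7 rats are left out. The count of 643 thus overstates robustness. With 1 rat left out, 62 of 600 values changed sign. All 600 moved by less than 1 SD, but leaving out 1 rat cannot shift a cohort mean by a full SD of that cohort. The count of 600 was thus fixed beforehand and says nothing about robustness. Among values with an unadjusted p under 0.05, the Stat3 probe A_44_P787936 reversed at day 21 to -0.036 with median centring, and the Osmr difference between days to -0.033 on forward arrays alone. The causes were not tested.

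The count of called probes, 0 in each comparison, became 1 at day 7 without background correction. With each array in the fit on its own, a dye term and a random block for the rat, it was 13 at day 7, 2 at day 21, 1 for the difference between days and 8 for the mean of both days. That mean gave 1 without background correction, 1 in the authors' deposited table, 134 on dye-swap arrays alone and 1 with scan batch as a random block. Non-sprouting levels gave 5 within the scan batch that held both days. Leaving out 1 rat gave 0 to 1 at day 7 (1 without day 7 replicate 5). For the levels it gave 0 to 104 in sprouting and 0 to 469 in non-sprouting neurons, both highest without day 21 replicate 1. Replicate numbers did not pair the cohorts, and with the replicate block the count stayed 0 for the difference and both levels. Dim signal limits Il6, Lif, Lifr, Osmr, Cntfr and Socs3, and 5 rats per day leave intervals of up to 0.41 either side of a member ratio.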

Other observations

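A further probe, A_44_P622886, is described on the array as part of Jak2 but does not carry its gene name, so it was not a member. It was above 0 in 5 of 5 day 7 rats, at 0.22 ± 0.24 (SD, n = 5, adjusted p = 0.794 in limma), with replicate 1 at 0.65, and stood at -0.054 ± 0.14 at day 21 (adjusted p = 0.956). Its correlation with the Jak2 member probe over the 10 rats was 0.065, a description of 2 probes read in the same pools.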
